A study of Homo sapiens with 17 samples.

Results

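Anti-ac4C pull-down of poly(A) RNA from TDP43-depleted HEK293T cells was compared with the control immunoglobulin G (IgG) pull-down from the same depleted cells, gene by gene. The comparison used 6 of the 17 libraries of the series, 3 labelled siTDP43 IP and 3 labelled siTDP43 IgG, and 12746 of the 23368 genes in the table held enough counts to be tested. HEK293T is a line of human embryonic kidney cells that carries the SV40 large T antigen. In acRIP-seq, RNA that carries N4-acetylcytidine (ac4C) is bound by an antibody and sequenced, and IgG stands in for that antibody in the control. WT cells and cells treated with siRNA against TDP43 (genotype siTARDBP in the labels) were each measured as input RNA without pull-down, as IP and as IgG, with 3 libraries per group and 2 of WT IgG. The depletion was transient and left TARDBP mRNA at 67.0% of the WT input level (log2 -0.58, SE 0.082, adjusted p = 8.63e-08 in an edgeR fit of all 17 libraries). The labels of the WT group name no control siRNA, and the sources used here do not say for these libraries whether the 3 of a group came from separate cultures. The p-values therefore measure the spread between libraries, which may be technical.

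N4-acetylcytidine is an acetylated form of cytidine that is well known from tRNA and 18S rRNA, where the acetyltransferase NAT10 writes it. THUMPD1 is a tRNA-binding partner of NAT10, and PCBP1 and PCBP2 are RNA-binding proteins that favour runs of cytidine. TDP43, encoded by TARDBP, is an RNA-binding protein of the nucleus that favours UG-rich RNA and is known for its part in splicing and in neurodegeneration. A gene above its IgG level in the pull-down is read in such experiments as a candidate carrier of the modification, so the IgG library sets the baseline of every value given here.

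The depletion used a pair of siRNA duplexes, and their sense strands are shown because they define what was removed. The capitals are the bases that match the TARDBP transcript, and the lower-case tail is the DNA overhang.
siTDP43 1: GGCUGGUAGAAGGAAUUCUtt
siTDP43 2: GUCACAGCGACAUAUGAUAtt
The first matched 19 bases of the coding sequence in exon 2 of 6, at hg19 chr1:11073948-11073966. The second matched 19 bases of the coding sequence in exon 4, at chr1:11078873-11078891. Both lie on the plus strand.

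Total counts were 8610070 to 15736165 in siTDP43 IP, 3013989 to 3436811 in siTDP43 IgG and 24542434 to 31030950 in siTDP43 input. No library stood apart from its group: Spearman correlations across genes were 0.982 to 0.984 within IP and 0.958 to 0.963 within IgG. All 7 markers of HEK293 cells were above 3 counts in the inputs, while PAX2 was at 0 in every IP and IgG library and INA at 0 in every IgG library. Markers of other cell types were low throughout. In CPM (counts scaled to a library of 1000000), the summed level of the 10 markers ranged from 3.03 to 3.14 in the inputs, from 6.86 to 8.67 in the IP libraries and from 15.7 to 27.5 in the IgG libraries, with PTPRC and PECAM1 at 0 in all 9 libraries. These low sums differ between the pull-downs, and their part in the results was not tested.

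Pull-down and IgG gave different RNA profiles in the depleted cells. Of the 12746 genes tested, 4328 (34.0%) were more than 2-fold higher in IP and 1913 (15.0%) more than 2-fold lower, at an adjusted p under 0.05 in edgeR's quasi-likelihood F test. The median log2 IP over IgG of all genes was 0.33. Without the fold threshold, 5725 genes (44.9%) were higher and 3637 (28.5%) lower, and the 3 IP libraries lay wholly above the 3 IgG libraries for 5699 genes (44.7%) and wholly below them for 3519 (27.6%). Values of IP and IgG are relative to the other RNAs of the same library, so a shift of all genes together cannot be seen.

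A large share of the higher genes had next to no IgG counts. In 2237 genes every siTDP43 IgG library held at most 3 counts while IP held more, and 1721 of these had no IgG count at all. The fit called 1973 of the 2237 higher, but the size of a fold against so few counts is not known, so these genes are given by a bound: the mean IP level over the level of 3 counts in each IgG library. The bound was above 2 for 1319 of them and above 5 for 617, with a median of 2.57. A further 174 genes had at most 3 counts in every IP library. In 321 genes both pull-downs were that low, and no fold is given for them although the fit called 14 of them lower. Among the 10014 genes above 3 counts in both groups, 2355 (23.5%) were higher and 1728 (17.3%) lower.

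The IgG libraries, more than the IP libraries, departed from input where the 2 pull-downs differed. Relative to input 26.8% of genes were more than 2-fold higher and 25.4% lower in IP, and 24.7% higher and 41.0% lower in IgG. These shares include genes at the floor, 2558 in IgG and 495 in IP, for which the size of the fold is not known. In the 2355 higher genes the median log2 IP over input was -0.01 and the median log2 IgG over input -2.02. In the 1728 lower genes the medians were -0.24 and 1.82. The ratios share libraries with the comparison that chose these genes, so the medians are a description.

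**Figure D1:**
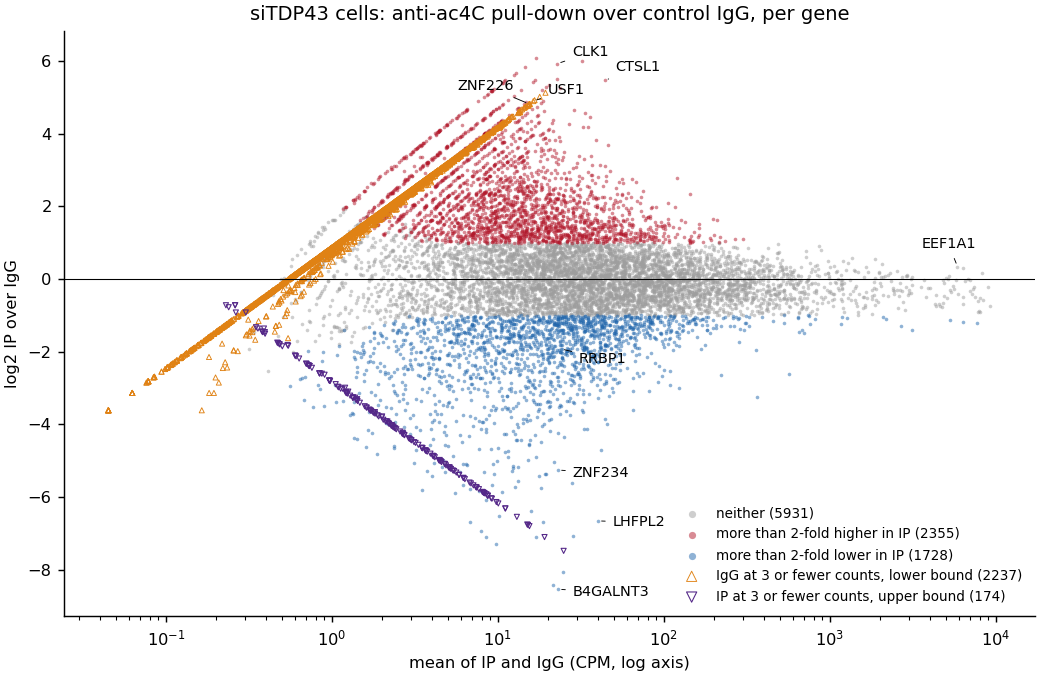
Each point is 1 gene, plotted by its mean CPM in IP and IgG (x, log axis) and its log2 IP over IgG (y) in siTDP43 cells. Red and blue points are the 2355 higher and 1728 lower genes above 3 counts in both groups, grey the 5931 that were neither. Open triangles are bounds for the 2237 genes with IgG and the 174 with IP at 3 or fewer counts; a bound on the wrong side of 0 gives no direction. The spread narrows with abundance, and EEF1A1, among the most abundant, lies near 0 at 0.34.

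USF1, a basic helix-loop-helix leucine zipper factor that binds E-box elements, and ZNF226 were among the genes without any IgG count. USF1 (hg19 chromosome 1, 161009041 to 161015757, minus strand) had 588, 306 and 252 counts in the IP libraries and 0, 0 and 0 in IgG. At 39.7, 28.8 and 29.6 CPM the IP libraries lay close to the inputs, which had 30.5, 28.5 and 28.1 CPM, while all IgG libraries were empty. The IP level was at least 29.8-fold that of IgG (edgeR adjusted p = 3.53e-11). ZNF226 (chromosome 19, 44669215 to 44681838, plus strand), a zinc finger gene of a large chromosome 19 cluster, had 421, 350 and 268 IP counts against 0, 0 and 0 in IgG. Its IP libraries, at 28.4, 32.9 and 31.5 CPM, lay above all inputs (18.4, 18.2 and 16.03 CPM) and above all IgG libraries. The IP level was at least 28.2-fold that of IgG (adjusted p = 2.5e-11), and its log2 IP over input was 0.82 (SE 0.149, adjusted p = 5.04e-05). With counts halved, as most low counts were even and both mates of a pair may each have added 1, the log2 bounds fell to 3.89 for USF1 and 3.81 for ZNF226 from 4.89 and 4.81.

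The other genes with the highest bounds encode enzymes, a tetraspanin and a calcium sensor, with no common role. SORD, the sorbitol dehydrogenase of the polyol pathway, had 615, 410 and 298 counts in IP against 0, 1 and 2 in IgG, at least 34.9-fold. TSPAN7, a tetraspanin of the cell surface, had 462, 364 and 349 against 0, 2 and 0, at least 32.3-fold. C9orf156, a tRNA methyltransferase, had 449, 400 and 272 against none, at least 30.3-fold. In each of the 3 genes the lowest IP library lay far above the highest IgG library. EFHA1, a regulator of the mitochondrial calcium uniporter, was at least 28.2-fold higher, CAPN1, the catalytic subunit of calpain 1, at least 28.1-fold and MPND at least 28.0-fold (adjusted p of all 6 genes from 1.08e-12 to 6.77e-11). MPND differed from the rest in its input level: its IP libraries had 31.3, 29.4 and 31.5 CPM and its inputs 1.46, 1.15 and 1.30, a log2 IP over input of 4.54 (SE 0.221, adjusted p = 1.72e-13). SORD, EFHA1, CAPN1 and TSPAN7 were lower in IP than in input, at log2 -1.18, -0.97, -0.71 and -0.64, and C9orf156 was higher at 0.59. IP over input and IP over IgG share the IP libraries, so the values stand side by side and are not independent.

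Where IgG held a few counts, the highest ratios were those of ACOT8, C12orf29 and CLK1. ACOT8, a peroxisomal acyl-CoA thioesterase, had 526, 349 and 273 counts in IP and 0, 0 and 4 in IgG (log2 6.08, SE 0.405, adjusted p = 3.41e-11); its exons overlap those of SNX21. C12orf29 had 1019, 631 and 521 against 0, 2 and 6 (log2 6.01) and shares exon bases with CEP290. CLK1, a kinase that phosphorylates SR splicing factors, had 646, 475 and 395 against 2, 4 and 0 (log2 5.92, SE 0.324, adjusted p = 2.25e-12). All IP libraries of the 3 genes were far above all IgG libraries. The level of CLK1 in IP, 43.6, 44.6 and 46.4 CPM, was near that of the inputs, 53.3, 49.1 and 54.1 CPM, so it was the IgG level that stood apart.

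CTSL1, which encodes the lysosomal protease cathepsin L, had the best measured of the high ratios. It had 1222, 976 and 718 counts in IP and 6, 4 and 6 in IgG, or 82.5, 91.8 and 84.3 CPM against 2.15, 1.58 and 2.07, with inputs of 85.5, 86.2 and 85.2 CPM. The log2 IP over IgG was 5.46 (SE 0.199, adjusted p = 9.22e-15), and the IP and input levels overlapped. NARG2, a subunit of the little elongation complex, had a log2 ratio of 5.84, the copine CPNE8 5.66, the orphan nuclear receptor NR2C1 5.62, the thioesterase PPT2 5.50, the syntrophin SNTB2 5.47 and the zinc finger gene ZNF526 5.46. SNTB2 was also above its input, at log2 2.49 (SE 0.195, adjusted p = 1.11e-10), as were ZNF526 at 1.07 and PPT2 at 0.81. The exons of PPT2 overlap PPT2-EGFL8 and LOC100507547. For 9 of the 10, all except CTSL1, leaving out 1 IgG library moved the value by over 1.5 times. CLK1, for example, had 6.97 without IgG replicate 2 and 5.30 without IgG replicate 3, and ACOT8, NARG2, CPNE8, NR2C1, PPT2 and ZNF526 had IgG counts in 1 library only. Without IgG replicate 1 the values were 5.50 for ACOT8, 5.42 for C12orf29, 5.25 for NARG2, 5.08 for CPNE8, 5.03 for NR2C1, 4.91 for PPT2, 4.88 for SNTB2 and 4.88 for ZNF526. Without IgG replicate 2 SNTB2 had 6.52 and NARG2, CPNE8 and PPT2 had no IgG count left. Without IgG replicate 3 C12orf29 had 7.37, NARG2 5.22, CPNE8 5.05 and PPT2 4.88, and ACOT8, NR2C1 and ZNF526 had no IgG count left.

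At the other end lay genes that the IgG libraries held and the pull-down nearly lacked. B4GALNT3, a glycosyltransferase, had 4, 0 and 0 counts in IP and 142, 114 and 122 in IgG (log2 -8.53, SE 0.462, adjusted p = 2.01e-12). HSPA2, a member of the HSP70 family that is abundant in testis, had 4, 0 and 0 against 88, 122 and 140 (log2 -8.42). Both were wholly lower in IP, and both owe their only IP counts to replicate 1. BDH1, the mitochondrial dehydrogenase that interconverts the ketone bodies, had 6, 6 and 2 counts in IP against 106, 160 and 195 in IgG (log2 -7.07, SE 0.317, adjusted p = 1.9e-13). Its inputs, at 14.5, 13.5 and 13.0 CPM, lay between IP (0.41, 0.56 and 0.23 CPM) and IgG (37.97, 63.3 and 67.2 CPM). The same order of groups held for LHFPL2, which had 4, 6 and 16 counts in IP and 240, 180 and 234 in IgG (log2 -6.65, SE 0.315, adjusted p = 3.11e-13), and -7.63 without IP replicate 3.

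CLCN5, a chloride and proton exchanger of endosomes, had 18, 12 and 8 counts in IP against 200, 106 and 150 in IgG (log2 -5.62). EFHD1, a calcium-binding protein of mitochondria, had a log2 ratio of -5.36, the chondroitin sulfotransferase CHST3 -5.36, SPEF1, a protein of cilia and flagella, -6.68, and DKFZP564C196 -8.07, which moved to -8.77 without IP replicate 1. These genes did not share a function either. Of the 10 lowest, 4 moved by over 1.5 times when 1 IP library was left out, namely B4GALNT3, HSPA2, DKFZP564C196 and LHFPL2. Of the genes with IP at the floor, 2 reached a mean of 100 IgG counts: LOC100128288, with 140, 128 and 140 IgG counts, was at least 178-fold lower in IP, and LCN10, a lipocalin, with 104, 124 and 82, at least 137-fold lower.

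**Figure D2:**
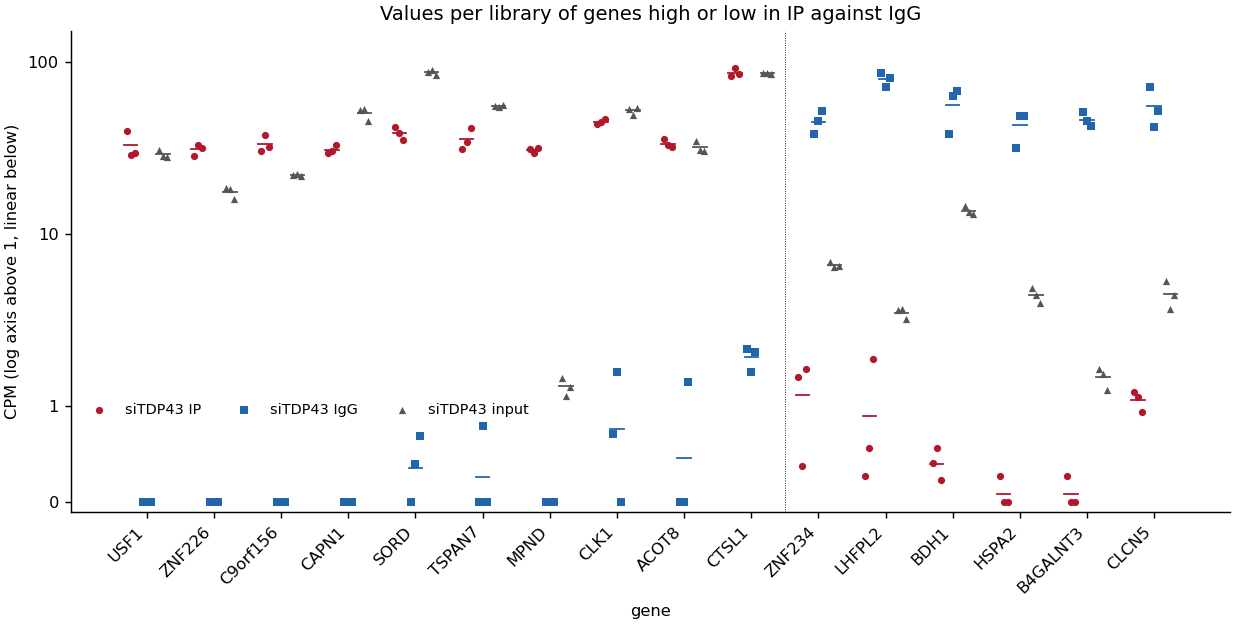
CPM of 16 genes in each library (y, log axis above 1 CPM and linear below it), with IP as circles, IgG as squares and input as triangles, and a bar at each mean of 3 libraries. Left of the dotted line IP and IgG do not overlap in any gene, and IP lies near input in USF1, CLK1, ACOT8 and CTSL1. Right of it IgG lies above both IP and input.

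ZNF226 and its neighbour show both patterns within 1 gene cluster. KRAB zinc finger genes sit in tandem on chromosome 19 and encode repressors that differ in their DNA-binding fingers. ZNF234 (chromosome 19, 44645710 to 44664462), the next zinc finger gene upstream of ZNF226 and on the same strand, had 22, 4 and 14 counts in IP and 106, 114 and 150 in IgG, or 1.49, 0.38 and 1.64 CPM against 37.97, 45.1 and 51.7. The groups did not overlap, and the log2 ratio was -5.25 (SE 0.313, adjusted p = 7.45e-12). Within 1 Mb of ZNF226 the table held 24 zinc finger genes, of which 17 were tested, 9 were higher (52.9%, against 34.0% of all genes) and 4 lower (23.5%, against 15.0%). Of the 5 above the floor in both groups none was higher and 2 were lower. The 9 include ZNF226 itself, which was chosen beforehand as a gene that leads this comparison. All 9 had IgG at the floor, and the bound was above 2 for ZNF226, ZNF227 (5.43), ZNF230 (5.38), ZFP112 (3.82) and ZNF235 (3.25). For ZNF221, ZNF155, ZNF222 and ZNF180 the bound was below 2. ZNF296, at log2 -2.82, was the other member that was lower and above 3 counts in both groups, while ZNF223 and ZNF283 rest on at most 4 counts in any pull-down library. The most abundant members differed less: ZNF428 had 0.51 (adjusted p = 0.0074) and, without IP replicate 1, 0.31 (adjusted p = 0.0879), and its exons overlap SRRM5. ZNF576 had -0.72. These genes are close paralogs, and counting of uniquely aligned reads can lower them all.

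Over all zinc finger genes of the ZNF, ZSCAN, ZKSCAN and ZFP series, 201 of 420 tested were higher (47.9%, against 34.0% of all genes) and 67 lower (15.95%, against 15.0%). Their median log2 was 0.44 with floor genes at their bound, beside 0.20 for all genes. Among the 223 measured above the floor in both groups the median was -0.08, beside 0.04 for all such genes. They were also low in abundance: 183 of the 420 (43.6%) had at most 3 counts in every IgG library, beside 20.1% of all genes. ZNF593, the most abundant, was lower at log2 -1.23 (SE 0.058, adjusted p = 3.11e-13), and ZNF503 was at -0.53. ZNF350 had no count in IP and 46, 34 and 42 in IgG, at least 53.1-fold lower.

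Among E-box factors of the USF, MAX, MITF and SREBF families, USF1 was on the other side of IgG from its paralog. USF1 was chosen beforehand as a gene that leads this comparison, so its place in the list is no separate result. USF2 had 1479, 958 and 734 counts in IP and 488, 475 and 424 in IgG (log2 -0.88, SE 0.101, adjusted p = 1.07e-07), so its relative level was lower in IP while that of USF1 was higher. Of 17 members tested 3 were higher, USF1, TFE3 and SREBF1, all with IgG at the floor (17.6%, against 34.0% of all genes), and 4 were lower (23.5%, against 15.0%). The lower ones were TFEB at log2 -4.25, the MAX partner MXD4 at -1.45 (SE 0.131, adjusted p = 2.98e-09), MLXIP at -1.63 and MLXIPL at -1.39. The counts of MXD4 were 850, 715 and 579 in IP and 512, 469 and 456 in IgG, so the larger IP totals held the smaller share.

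The acetyltransferase and the proteins that the study links to it were near their IgG level. None of the 6 tested members of the group NAT10, THUMPD1, TARDBP and PCBP1 to PCBP4 was more than 2-fold higher or lower, and their median log2 was -0.12. PCBP1 had 199, 185 and 202 CPM in IP and 136, 133 and 131 in IgG, without overlap (log2 0.55, SE 0.081, adjusted p = 3.37e-06). PCBP2 had 224, 228 and 241 CPM against 308, 297 and 302, again without overlap but lower in IP (log2 -0.39, SE 0.07, adjusted p = 3.65e-05), though its exons overlap MAP3K12. THUMPD1 was higher at log2 0.73 (SE 0.187, adjusted p = 0.00139). TARDBP itself had 61.3, 56.2 and 60.3 CPM in IP and 86.0, 64.5 and 56.2 in IgG, which overlap (log2 -0.22, SE 0.125, adjusted p = 0.126). NAT10 had log2 -0.31 (adjusted p = 0.0235), with -0.22 (0.115) without IP replicate 2 and -0.21 (0.142) without IgG replicate 2.

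The panel that the study followed by acRIP-qPCR held genes of all kinds. UPF3B, a factor of nonsense-mediated decay, had 86.6, 80 and 96.4 CPM in IP and 41.9, 39.6 and 45.2 in IgG, and was the panel's only higher gene (log2 1.05, SE 0.121, adjusted p = 1.12e-07; 0.83 with a GC trend removed). RRBP1, a ribosome-binding protein of the endoplasmic reticulum, had 11.5, 11.7 and 6.57 CPM in IP against 35.8, 42.7 and 35.5 in IgG (log2 -1.92, SE 0.251, adjusted p = 6.5e-07). ZFP36L2, which destabilises mRNAs with AU-rich elements, had 11.3, 11.3 and 13.4 against 28.7, 30.9 and 31.7 CPM (log2 -1.35, SE 0.21, adjusted p = 6.74e-06). The groups did not overlap in any of the 3 genes. The lysosomal membrane protein LAMP1 was lower too, by less than 2-fold (log2 -0.81, adjusted p = 0.00333). RBBP6, of the 3' end processing machinery, was at -0.41 (adjusted p = 0.0332), less than 2-fold. Its adjusted p was above 0.05 without IP replicate 1 (-0.36, 0.0883), IP replicate 2 (-0.39, 0.0724), IgG replicate 1 (-0.25, 0.223) or IgG replicate 2 (-0.40, 0.0604). The same held with the replicate block (-0.40, 0.0522) and with scaling by totals (-0.20, 0.312). The glycolytic enzyme GAPDH had 2597, 2561 and 2656 CPM in IP and 3466, 3486 and 3300 in IgG (log2 -0.39, SE 0.046, adjusted p = 1.4e-07), and the elongation factor EEF1A1 had 7702, 6252 and 5759 against 5345, 5326 and 4859 (log2 0.34, SE 0.073, adjusted p = 2.57e-04). With a GC trend removed EEF1A1 had 0.14 (edgeR adjusted p = 0.119).

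The abundant machinery of translation and respiration lay close to or slightly below the IgG level. Of 82 cytosolic ribosomal protein genes tested none was more than 2-fold higher, against 34.0% of all genes, and 2 were lower (2.44%, against 15.0%). The lower ones were RPS10 at log2 -1.87 and RPL39 at -1.20, and the median of the 82 was -0.31. RPL13 had log2 -0.74 (SE 0.062, adjusted p = 8.54e-10) and RPS2 -0.23, which became 0.03 with a GC trend removed. RPS10 shares exon bases with RPS10-NUDT3. Of 76 mitochondrial ribosomal proteins 5 were higher (6.58%) and 4 lower (5.26%), with a median of -0.15. They ranged from MRPL39 at 3.13 to MRPL34 at -1.35, with the abundant MRPL14 at -0.62. Of 76 nuclear subunits of oxidative phosphorylation 2 were higher (2.63%) and 6 lower (7.9%), with a median of -0.31. The higher ones were SDHD, a membrane anchor of complex II, at 2.25 and NDUFA12 at 1.64, and the lower ones included NDUFA3 of complex I at -1.46 and the ATP synthase subunit ATP5I at -1.18. UQCRQ of complex III was at -0.84.

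Other parts of the translation apparatus were mixed. Of 13 elongation factors 1 was higher (7.69%, against 34.0% of all genes) and 1 lower (7.69%, against 15.0%). EIF5A2 was at least 12.2-fold higher, EEF1A2 was lower at log2 -1.37, and EEF1G was at -0.38. Among 52 genes with initiation factor symbols 9 were higher (17.3%) and 4 lower (7.69%), with a median of -0.14. These symbols include Argonaute proteins, which carry small RNAs and do not initiate translation: EIF2C1 was higher at 3.14, EIF2C2 at least 6.16-fold higher, and EIF2C3 lower at -4.32, or -4.92 without IP replicate 1, with 14, 4 and 4 counts in IP against 36, 30 and 40. EIF3L, an abundant subunit of the EIF3 scaffold, was at -0.31. Of 20 heat shock chaperones 2 were higher (10%), DNAJC7 at 1.10 and HSPA1A, at least 2.09-fold. None of the list, which does not hold HSPA2, was lower by 2-fold. Of 35 proteasome subunits 3 were higher (8.57%) and 2 lower (5.71%). PSMC2 was at 2.10 and PSMC4 at -1.29, both ATPases of the proteasome base. Of 32 SR proteins and hnRNPs 3 were higher (9.4%) and 1 lower (3.1%), HNRNPH3 at -1.09.

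Lysosomal genes had members far to both sides. Of 23 tested 10 were higher (43.5%, against 34.0% of all genes) and 4 lower (17.4%, against 15.0%), with a median log2 of 0.43 beside 0.33. Among the 20 above the floor in both groups the median was 0.04, as for all such genes. Beside CTSL1, the protective protein CTSA was at least 10.7-fold and the peptidase TPP1 at least 15.4-fold higher, and the sialidase NEU1 was at 1.92. GUSB, the beta-glucuronidase, at -1.19, and SCARB2, a lysosomal membrane protein, at -1.15, were among the lower ones, though not the lowest. The abundant members CD63 (0.43) and PSAP (-0.29, or -0.13 with a GC trend removed) were near their IgG level. CTSA had 220, 118 and 78 counts in IP against none in IgG, and its exons overlap NEURL2 and PLTP. Of 25 genes of entry into the endoplasmic reticulum 6 were higher (24%, against 34.0% of all genes) and 1, RRBP1, lower (4%, against 15.0%). All 25 were above the floor in both groups, where 23.5% of all genes were higher and 17.3% lower. Their median was 0.39, beside 0.33 for all genes and 0.04 for all those above the floor in both groups. SRPR, the alpha subunit of the signal recognition particle receptor, led at 4.06, with 384, 269 and 246 counts in IP against 0, 9 and 4. It ranged from 3.47 without IgG replicate 1 to 5.23 without IgG replicate 2, and its exons overlap FAM118B. SEC61A2 of the translocon was at 2.98, SEC61A1 at 1.30 and SSR4 at -0.67.

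Solute carriers, HOX genes, mitotic genes and glycolytic enzymes had members in both directions. Of 224 solute carriers 92 were higher (41.1%, against 34.0% of all genes) and 40 lower (17.9%, against 15.0%), and the median of the 152 above the floor in both groups was 0.05 beside 0.04. They ranged from SLC25A46, a protein of the outer mitochondrial membrane, at least 17.9-fold higher, to the metal transporter SLC11A1, at least 32.8-fold lower. The abundant adenine nucleotide carrier SLC25A5 was at 0.44. Of 35 HOX genes 14 were higher (40%, against 34.0% of all genes) and 6 lower (17.1%, against 15.0%). HOXA10 was at 1.16 and HOXD13 at -0.79, and HOXD4 had 8, 10 and 6 counts in IP against 48, 74 and 90 in IgG (log2 -5.16, SE 0.412). Of 25 mitotic genes 6 were higher (24%) and 3 lower (12%), against 34.0% and 15.0% of all genes. All 25 were above the floor in both groups, where 23.5% of all genes were higher and 17.3% lower. Their median log2 was 0.40, beside 0.04 for all such genes. The kinetochore motor CENPE was at 3.15 and the checkpoint protein BUB3 at 0.26 (0.017 with a GC trend removed). The NDC80 complex members were NDC80 (1.43), NUF2 (2.51) and SPC24 (-1.63). Of 17 glycolytic enzymes 2 were higher (11.8%) and 3 lower (17.65%), and the phosphofructokinases split, with PFKM at 1.71 and PFKP at -1.21. LDHB was at 0.10.

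Short and non-coding genes were thinly covered. Of 392 snoRNA and scaRNA genes 62 were tested, 28 higher (45.2%, against 34.0% of all genes) and 12 lower (19.35%, against 15.0%). IgG was at the floor in 37 of the 62. Of the 24 above the floor in both groups 1 was higher and 10 lower. SNORA25 was at least 6.80-fold higher, and SCARNA22, a guide RNA of Cajal bodies, had 245, 219 and 182 counts in IP against 318, 333 and 353 in IgG (log2 -2.66, SE 0.136, adjusted p = 9.21e-13). Of 17 replication-dependent histone genes 7 were higher (41.2%), all with IgG at the floor, and 5 lower (29.4%), among them HIST1H2BK at -1.36. The mRNAs of such genes end in a stem-loop rather than a poly(A) tail. Of 80 LINC and antisense RNAs 28 were higher (35%, against 34.0% of all genes) and 18 lower (22.5%, against 15.0%). In 31 of the 80 IgG was at the floor. Of the 46 above the floor in both groups 8 were higher and 15 lower. The median log2 of the 46 was -0.40, beside 0.04 for all such genes. Whether counting used the strand is not given in the sources used here, so reads of an antisense RNA and its partner cannot be told apart.

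**Figure D3:**
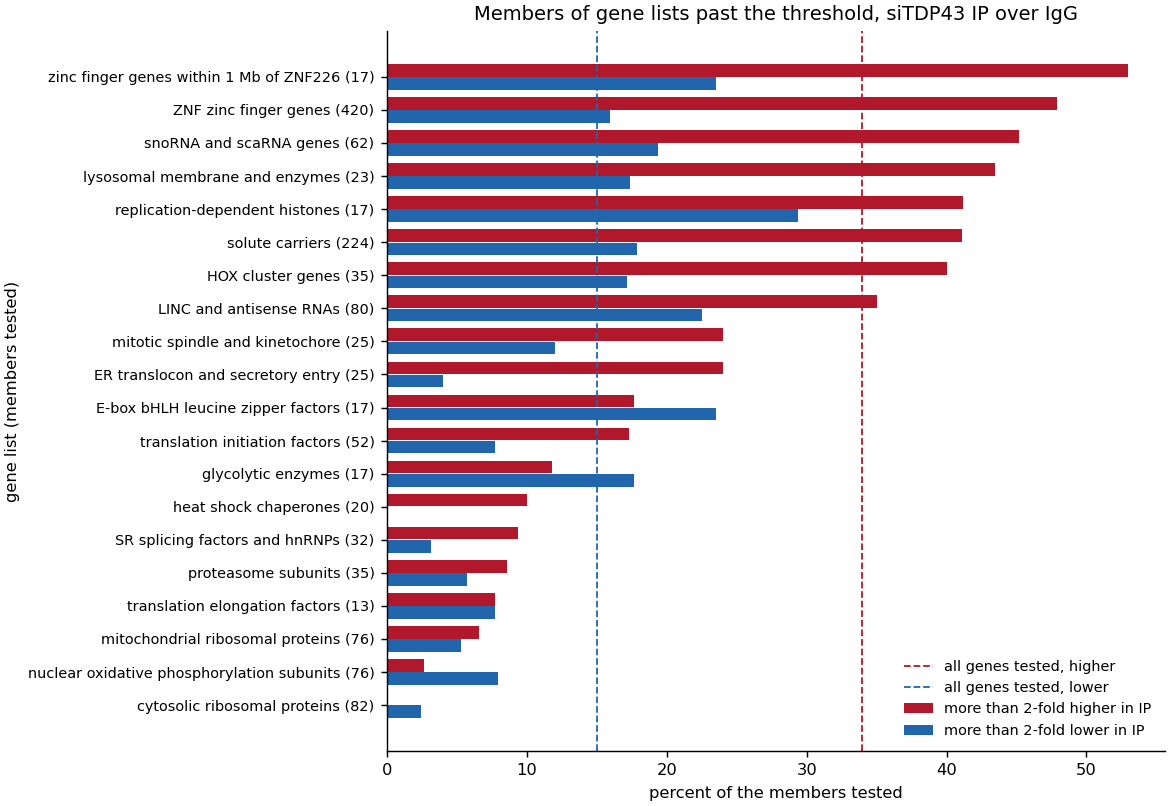
Percent of the tested members of 20 gene lists that were more than 2-fold higher (red) or lower (blue) in IP than in IgG, with the number tested in brackets. Dashed lines mark the shares among all 12746 genes, 34.0% and 15.0%. Zinc finger genes, histones, snoRNAs, LINC and antisense RNAs, lysosomal genes, solute carriers and HOX genes lie above both lines. Zinc finger genes, at 15.95% lower, are close to the blue line. The higher share of each of these lists includes genes with IgG at the floor. Above the floor in both groups 1 of 24 snoRNA and scaRNA genes was higher and 10 lower. For LINC and antisense RNAs 8 of 46 were higher and 15 lower, and for histones 0 of 8 and 3. Ribosomal proteins lie below both lines.

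The share of genes past the threshold differed with abundance. With genes in 10 groups of equal size by mean count over the 6 libraries, 29.6% were higher in group 1 (median 3.33 counts), 60.1% in group 2 (median 14.3 counts) and 3.06% in group 10 (median 1823 counts). The share of lower genes was 15.5% in group 1, 19.9% in group 2 and 4.47% in group 10. In group 2, 55.0% of genes had IgG at the floor, and in groups 8 to 10 no gene did. No list is called particular from its share, and the part of abundance in the lists' shares was not tested.

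GC content differed between the directions as well. The exons of higher genes above 3 counts in both groups had a median GC content of 46.2%, those of lower genes 52.9% and those of the rest 48.8%. Over 5 groups of rising GC content the share of higher genes fell from 33.2 to 18.0% and that of lower genes rose from 11.5 to 25.4%. Across 9921 genes the Spearman correlation of log2 IP over IgG with GC content was -0.19, and across 10014 genes it was 0.09 with exon length and 0.06 with exon number. Genes are not independent replicates, and all points share the same 6 libraries. With a GC trend removed from each library 4231 genes were higher and 1839 lower. The median exon length was 3551 bases in higher and 3234 in lower genes.

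**Figure D4:**
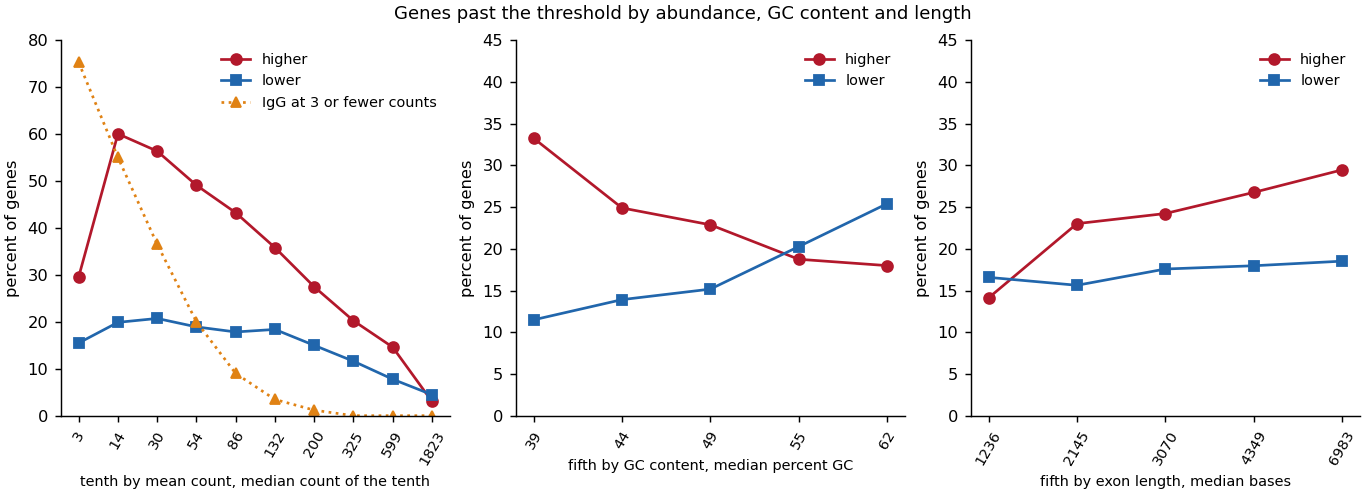
Percent of genes more than 2-fold higher (red circles) or lower (blue squares) in IP than in IgG, in 10 groups by mean count for all genes tested (left, x labels give the median count) and in 5 groups by GC content (middle, median percent) and by exon length (right, median bases) for genes above 3 counts in both groups. Triangles show the share with IgG at 3 or fewer counts. The share of higher genes falls with abundance from group 2 on and falls with GC content from 33.2 to 18.0%.

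The sequence motifs that the study drew from its peaks were counted on the transcript strand of the exons of all genes, as DNA letters. TCCCAGCT occurred in 20.2% of higher and 22.0% of lower genes, in 18.1% of genes with IgG at the floor and in 19.5% of all genes tested. A set of 4 octamers, TAGCCAGG, TAGCCGGG, TAGCTAGG and TAGCTGGG, occurred in 25.7% of higher, 24.1% of lower and 23.1% of all genes, and the hexamer TGTGTG, a sequence of the kind TDP43 binds, in 72.3, 66.0 and 67.1%. Longer exons hold more matches, and per kilobase the hexamer was at 0.59 in both directions and 0.60 in all genes. TCCCAGCT was at 0.063 per kilobase in higher, 0.079 in lower and 0.068 in all genes, and the set at 0.090, 0.099 and 0.091. USF1, ZNF226, CLK1 and CTSL1 held none of the octamers. RRBP1 held 1 of each kind and LHFPL2 1 of the set (the octamer is in capitals, on the transcript strand).
RRBP1 in exon 11 of 26: gggcggagaacTCCCAGCTcacagagagaa
RRBP1 in exon 22 of 26: ggatggtgacaTAGCTGGGgccccagcttc
LHFPL2 in exon 5 of 5: cttgaatccatTAGCCAGGcttgggatgaa
The octamers lie at hg19 chr20:17608219-17608226, chr20:17597428-17597435 and chr5:77782354-77782361, the first 2 in coding sequence and the last in untranslated sequence. Both genes were lower in IP. A match is a description of the letters only.

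Runs of cytidines spaced 3 bases apart were also read from the exons, since ac4C is known to favour such a spacing. The longest such run had a median of 7 repeats in higher, lower and all genes tested, and a run of 4 such cytidines occurred 7.85 times per kilobase in higher, 10.4 in lower and 8.92 in all genes. The longest runs of 6 of the genes described above, 4 higher and 2 lower in IP, are shown with the cytidines of the spacing in capitals.
USF1 in exon 4 of 11: CagCtgCcaCct
ZNF226 in exon 8 of 8: CttCaaCttCatCag
CLK1 in exon 2 of 12: CgcCgtCccCggCgc
CTSL1 in exon 1 of 8: CcgCgaCctCcgCaaCct
RRBP1 in exon 1 of 26: CagCgtCtaCagCtgCtc
LHFPL2 in exon 1 of 5: CtgCccCcgCccCtcCtcCtcCtcCct
They lie at chr1:161012395-161012406, chr19:44681555-44681569, chr2:201729177-201729191, chr9:90341038-90341055, chr20:17662785-17662802 and chr5:77944590-77944616. The runs have 4 repeats in USF1, 5 in ZNF226 and CLK1, 6 in CTSL1 and RRBP1 and 11 in LHFPL2, of which 9 are printed. Those of USF1 and ZNF226 lie in coding sequence, those of CLK1, CTSL1 and RRBP1 in untranslated sequence and that of LHFPL2 in an exon of no protein-coding transcript.

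The same ratio in WT cells differed for most genes. In the fit of all 17 libraries the change of IP over IgG between siTDP43 and WT had an adjusted p under 0.05 for 9216 of 15165 genes (60.8%), 5293 higher and 3923 lower in siTDP43. Of the 4235 genes higher in siTDP43 and tested in both genotypes 1659 were also higher in WT, which is 39.2% of the siTDP43 genes and 41.6% of the 3989 WT genes, where 31.8% of all genes tested in both were higher in WT. Of the 1864 genes lower in siTDP43, 713 were higher in WT (38.3% of them and 17.9% of the WT genes) and 312 lower (16.7% and 13.7%), where 18.1% of all genes were lower in WT. Of the 4235 genes higher in siTDP43, 779 were lower in WT (18.4% of them and 34.2% of the WT genes). The genotypes share no library in this comparison, but the siTDP43 IgG libraries held 3013989 to 3436811 counts and the WT IgG libraries 9022250 to 9466855, and the part of this difference in the result was not tested.

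RRBP1 and RBBP6 had the largest changes in the panel. RRBP1 had 1144, 1182 and 1228 CPM in WT IP and 77.7 and 98.9 in WT IgG (log2 3.75), against -1.92 in siTDP43, a change of -5.56 (SE 0.216, adjusted p = 2.61e-22). RBBP6 had 1004, 1152 and 1159 CPM in WT IP and 53.1 and 72.0 in WT IgG (log2 4.14), a change of -4.48 (SE 0.178, adjusted p = 4.9e-22). In WT the IP libraries of both genes lay far above IgG, while in siTDP43 those of RRBP1 lay below it and those of RBBP6 overlapped with it. ZFP36L2 changed by -2.96, LAMP1 by -2.13 and UPF3B by -1.13, and UPF3B alone of these stayed above IgG in both genotypes. EEF1A1 moved the other way, from -1.40 in WT to 0.34, a change of 1.82 (SE 0.123, adjusted p = 1.28e-15), and GAPDH changed by 0.53. USF1 was on the opposite side in WT, with 3.02, 3.47 and 4.83 CPM in IP against 21.2 and 23.9 in IgG (log2 -2.58, SE 0.187). CLK1 had -1.002 in WT and 5.92 in siTDP43, a change of 7.002 (SE 0.321, adjusted p = 2.37e-20), and CLCN5 had 5.48 in WT and -5.62 in siTDP43, a change of -11.03 (SE 0.478, adjusted p = 4.88e-21). From WT to siTDP43 the log2 change of CLK1 was -6.08 in IgG and 0.92 in IP, and that of CLCN5 7.53 in IgG and -3.49 in IP. ZNF226 was above IgG in both genotypes, with 21.9, 19.8 and 18.6 CPM in WT IP and 0.19 and 0.41 in WT IgG.

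**Figure D5:**
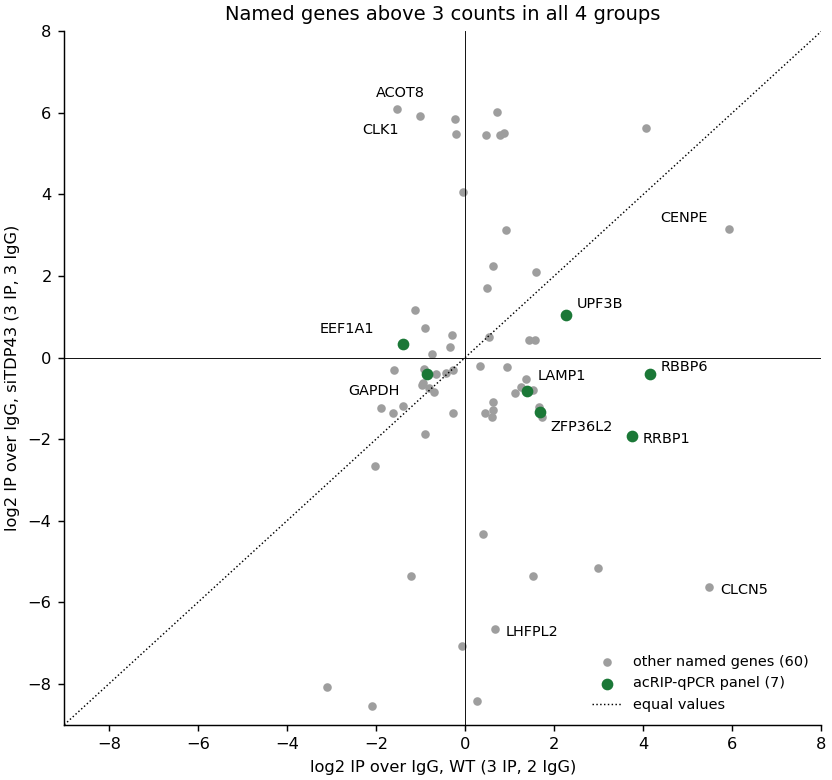
Log2 IP over IgG in WT (x) against siTDP43 (y) for 67 named genes above 3 counts in all 4 groups, with the 7 genes of the acRIP-qPCR panel in green and the dotted line at equal values. RRBP1 and RBBP6 lie far right and below 0, and CLK1 and ACOT8 lie high and left of 0.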

How the data were processed

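The authors made SMART-seq2 libraries from low amounts of poly(A) RNA and used Trim Galore 0.6.7, STAR 2.7.10a and featureCounts 2.0.2, per the submitters' processing notes. The methods name hg19 (96.338% of 198769 introns in the table have GT and AG ends in it). The authors deposited raw counts per gene, not normalized. Strand setting and annotation release are not given in the sources used here. Exons of 3757 genes overlap another gene, and such overlaps are named above for some genes only. PPT2 and HSPA1A are among 296 genes placed on more than 1 chromosome or haplotype sequence. Of counts from 1 to 20, 81.3 to 95.9% were even. No molecular identifiers were used, so floors and bounds cover counting error only.

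The 9 siTDP43 libraries (IP, IgG, input) were fitted together with edgeR 4.0.16 in R 4.3.3 (quasi-likelihood F test, TMM, filterByExpr at a minimum count of 10, Benjamini-Hochberg). Genes were called higher or lower where the adjusted p was under 0.05 and the fold over 2. A group was at the floor with at most 3 counts in every library. CPM use the TMM library size. WT values and changes come from a fit of all 17 libraries. Replicates were not duplicates (chi-square per degree of freedom 3.59 to 9.43), and the test was checked on simulated counts. Genes named were USF1, ZNF226, the NAT10 group, the qPCR panel, the 10 highest and 10 lowest ratios, the 8 highest bounds, the lowest bounds, and the most abundant, highest and lowest members of the lists (ranked genes passed at 0.05, averaged 100 or more counts in the higher group and did not overlap). List members outside this rule were chosen after their values were seen. Members and lists were chosen with earlier results of these data known. Some genes that the rule gives are not reported here. Alternatives were DESeq2 1.42.0, other scalings, filters and sets of libraries, a replicate block, glmTreat, a fold above 5, halved or thinned counts, limma 3.58.1 on log2(FPKM + 1), a GC trend removed and leaving out each library.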

Additional observations from a re-analysis of the deposited data

Results flagged for a closer look

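The change of log2 IP over IgG between siTDP43 and WT was tested in the edgeR fit of all 17 libraries, and for 40 of 89 genes named by the rule it passed with the ratios on opposite sides of 0 in the 2 genotypes (highest adjusted p = 1.75e-08). Of all genes 60.8% passed the test of the change, and many of the 89 were named for extreme ratios in siTDP43, which enter the change. The ratio was higher in siTDP43 in 15 of them and lower in 25. Outlying samples were not tested for in groups of 3 libraries.

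Among the writer group and the qPCR panel the changes were 1.71 for THUMPD1, 0.92 for PCBP1, 1.82 for EEF1A1, -5.56 for RRBP1, -4.48 for RBBP6, -2.96 for ZFP36L2 and -2.13 for LAMP1. Among the highest and lowest ratios they were 7.68 for ACOT8, 7.0 for CLK1, -7.24 for LHFPL2, -11.03 for CLCN5 and -6.83 for EFHD1. A change of the ratio can lie in IgG, in IP or in both. From WT to siTDP43 the log2 changes in IgG and in IP were -4.6 and 3.1 for ACOT8 and -6.1 and 0.9 for CLK1. They were 4.5 and -2.7 for LHFPL2, 7.5 and -3.5 for CLCN5 and 2.5 and -4.3 for EFHD1. For RRBP1 they were -1.2 and -6.7, and for RBBP6 -0.7 and -5.1. Of the transcription factors, USF2 changed by -1.92, MXD4 by -3.11, ZNF503 by -1.82, ZNF576 by -1.89, HOXD13 by -2.25, HOXD4 by -8.07 and HOXA10 by 2.36. Of the list members, RPS2 changed by -1.09, NDUFA3 by -1.99, HIST1H2BK by -1.73, PFKP by -2.79, PSMC4 by -1.85, HNRNPH3 by -1.64 and BUB3 by 0.67.

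Where a group was at the floor, the change is a bound. It was at least 7.48 for USF1, 6.60 for C9orf156, 5.61 for EFHA1, 5.37 for TSPAN7, 5.36 for MPND, 5.68 for SLC25A46, 5.18 for EIF5A2 and 4.12 for EIF2C2. In the other direction it was at least as low as -10.74 for ZNF234, -9.68 for TFEB, -9.24 for LCN10, -8.15 for LOC100128288, -8.01 for ZNF350 and -5.05 for SPC24. These bounds combine IP and IgG. In IP alone the log2 change from WT to siTDP43 was 3.24 for USF1, 0.14 for TSPAN7, -0.14 for MPND, -3.40 for ZNF234 and 2.23 for SPC24.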

How the results depend on the processing

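The low IgG counts leave 2237 genes with a bound in place of a ratio, and all values are relative to their library. The counts of 4328 higher and 1913 lower genes were 2803 and 696 at a fold above 5, and 2136 and 1203 with a mean of at least 50 counts required. With limma on log2(FPKM + 1) 1052 were lower (2961 higher). The other settings stayed within 1.5 times, among them DESeq2 (4435 and 2052), thinned counts (3395 and 1758), glmTreat (3549 and 1396) and scaling by totals (4762 and 1553, where the median log2 of all genes was 0.54 in place of 0.33). Leaving out 1 library gave 4321 to 4355 higher and 1904 to 1944 lower genes. Replicate numbers did not pair IP with IgG libraries (correlations -0.0065, -0.0018 and 0.0092), and with the replicate block 4266 genes were higher and 1868 lower, and the change between genotypes was higher for 5259 and lower for 3914. The direction of RPS2 turned with a GC trend removed (0.030) and that of TARDBP with limma (0.014). Under 18 settings 1594 values of 89 of the genes named were compared by direction and by the adjusted p threshold, without the fold. Of these values 1535 kept direction and side of that threshold, 51 lost it and 6 gained it. A gene could thus lose its call by the fold and still count as kept. Many of the 51 were glmTreat values, tested against a fold of 2, of genes under 2-fold in the main fit, such as NAT10 and GAPDH. The cause of these differences was not tested.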
